A study of Mus musculus with 2 samples.

Results

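Mast cells and granulocytes are the granule-bearing cells of the blood lineage, and 69 of the 10008 cells read from the fetal mouse pancreas were taken as such here. A cell was taken if it held at least 10 unique molecular identifiers (UMIs, counts of captured mRNA molecules) summed over the mast cell proteases Cpa3 and Cma1 and the neutrophil calcium-binding proteins S100a8 and S100a9. That sum had to be no lower than the sum of the macrophage genes C1qa, C1qb, C1qc and Csf1r, and at least 1 UMI of Fcer1g, Tyrobp or Srgn, genes used widely in blood cells, was required. Cells rich in collagen (Col1a1 with Col3a1, 20 or more UMIs per 10000), Gcg (200 or more), insulin (Ins1 with Ins2, 200 or more) or Ctrb1 (100 or more) were not taken. The pancreata were dissected at E15.5 (embryonic day). In Mettl3pKO embryos the gene of the m6A RNA methyltransferase subunit METTL3 was removed in Pdx1-positive progenitors of the pancreas, and they were set against wild type (WT) embryos. Each genotype was 1 library, made from tissue dissociated with enzyme and captured in BD Rhapsody microwells. The sources used here do not give the number of embryos in a library or the Cre line. Pdx1 marks the epithelial lineage of the pancreas, from which blood cells do not arise. With 1 library per genotype no difference below has a replicate check and no test was made; 95% intervals are exact and cover counting error only.

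Mast cells store proteases, histamine and serotonin on a proteoglycan core, respond through the stem cell factor receptor KIT and the IgE receptor, and in the fetus arise from yolk sac and later blood progenitors before they mature in tissues. Basophils share part of this programme with them. Neutrophils make their granules in sequence. Primary (azurophil) granules with myeloperoxidase and serine proteases come early, secondary granules with lactoferrin and antimicrobial peptides at the myelocyte stage, and tertiary granules later. They also express the calgranulins S100a8 and S100a9. Classical monocytes carry LY6C2 and the chemokine receptor CCR2 and may express calgranulins too.

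The Mettl3pKO library gave 22 of these cells among 3624 (0.607%) and the WT library 47 among 6384 (0.736%), a ratio of 0.825 (95% interval 0.473 to 1.40). Where Cpa3 and Cma1 together were at least as many UMIs as S100a8 and S100a9 the cell was called mast-like, and otherwise granulocyte-like. Mast-like cells numbered 19 in Mettl3pKO (0.524% of cells, Clopper-Pearson 0.316% to 0.818%) and 30 in WT (0.470%, 0.317% to 0.670%), a ratio of 1.12 (0.593 to 2.05). Granulocyte-like cells numbered 3 in Mettl3pKO (0.0828%, 0.0171% to 0.242%) and 17 in WT (0.266%, 0.155% to 0.426%), a ratio of 0.311 (0.0584 to 1.07). Both intervals include equal shares, so neither difference was detectable at these numbers of cells. For granulocyte-like cells that call rested on the choice of cells. The interval lay below equal shares with a minimum of 20 marker UMIs (ratio 0.207, 0.0232 to 0.873), among cells with Y-linked and no Xist UMIs (0.0867, 0.0020 to 0.609), and without members of 10 or more epithelial UMIs (0 Mettl3pKO cells, upper limit 0.491).

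The cells read from the libraries had different depths, and this touches every share and level here. The deposited counts ran from deep to shallow cells and ended in an incomplete row for each library. Shallower cells may therefore be missing, and all shares are of the cells read. The Mettl3pKO cells had a median of 16481 UMIs and none had fewer than 10719, whereas the WT cells had a median of 10824 and a lowest total of 3803, and 84.4% of Mettl3pKO cells against 34.0% of WT cells had 13000 UMIs or more. Among cells of at least 13000 UMIs there were 16 mast-like cells in Mettl3pKO and 10 in WT (ratio of shares 1.14, 0.485 to 2.80) and 3 granulocyte-like cells in each library (0.710, 0.0951 to 5.30). Cells in which Y-linked transcripts but not Xist were detected made up 56.2% of the other cells in Mettl3pKO and 27.6% in WT, and 14 of 19 and 8 of 30 of the mast-like cells, so the share of cells with male and with female transcripts differed between the libraries; its part in the results was not tested. Mettl3 itself gave 5 UMIs in the mast-like cells of Mettl3pKO and 5 in those of WT (15.1 and 13.9 UMIs per 1000000, CPM; ratio 1.08, 0.250 to 4.71), too few to show a difference.

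The summed marker count that chose the cells ran from 14 to 909 UMIs with a median of 221.5 in Mettl3pKO and from 21 to 955 with a median of 374 in WT. The 3 lowest members held 14, 14 and 24 UMIs in Mettl3pKO and 21, 24 and 24 in WT. Just outside, 1 cell in Mettl3pKO and 3 in WT held 5 to 9 marker UMIs, the highest at 9 in each library. Of the cells with 10 marker UMIs or more, 29 in Mettl3pKO and 57 in WT, those not taken failed mainly the terms on collagen (3 and 5 cells), Ctrb1 (4 and 2) and Gcg (1 and 2). UMIs of both marker pairs occurred in 0 members of Mettl3pKO and 2 of WT. At least 10 UMIs over 8 pancreatic epithelium markers (among them Epcam, Cdh1, Sox9 and Spp1) were present in 7 Mettl3pKO members, 4 mast-like and all 3 granulocyte-like, and in 5 WT members, 3 mast-like and 2 granulocyte-like. No doublet caller was run, so cells that shared a well cannot be told apart from single cells here.

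Genes that the rule did not use were read in the mast-like cells to describe them further. Ranked by their level relative to all cells outside the 69, the leading genes of the 49 mast-like cells included the mast tryptases Tpsg1, Tpsb2 and Tpsab1, the histidine decarboxylase gene Hdc, the interleukin-33 receptor gene Il1rl1, the transcription factor gene Gata2 and Il4. Hdc was detected in all 49 of these cells, Il1rl1 in 48 and Tpsab1 in 15. Also among the leading genes were the basophil protease gene Mcpt8, Ms4a2 and Cd200r3, detected in 10, 32 and 39 of the 49. Because the cells were chosen on the same data, these ranks describe the cells and are not a test. After each cell was thinned to 6000 UMIs, Hdc was seen in 18 of 19 mast-like cells of Mettl3pKO and 30 of 30 of WT, against 1.01% and 1.54% of the cells that were neither members nor macrophage-like by the C1q and Csf1r genes. Gata2 was seen in 18 of 19 and 29 of 30 mast-like cells, against 0.447% and 0.923% of those other cells.

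The 69 cells were not uniform, and 4 kinds were told apart by genes that were chosen after the values were seen. Most mast-like cells, 15 in Mettl3pKO and 28 in WT, had at least as many UMIs of the proteases Cma1 and Tpsb2 as of Mcpt8 and Ms4a2, and are called protease-rich below. Some of them held few: 1 WT cell had 2 UMIs of Cma1 and 0 of Tpsb2, and 1 Mettl3pKO cell had 7 and 11, with 0 UMIs of Kit and Gata2 and 56 epithelial UMIs. The other mast-like cells, 4 in Mettl3pKO and 2 in WT, had more UMIs of Mcpt8 and Ms4a2 than of Cma1 and Tpsb2. Among granulocyte-like cells, 1 in Mettl3pKO and 10 in WT were rich in the secondary granule genes Ngp, Camp, Ltf and Lcn2, 0 in Mettl3pKO and 7 in WT were rich in Ly6c2, Ccr2 and Csf1r, and 2 in Mettl3pKO and 0 in WT were neither. The map of single cells shows these kinds as blocks of genes, which for the genes just named follows from how the kinds were set.

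**Figure D1:**
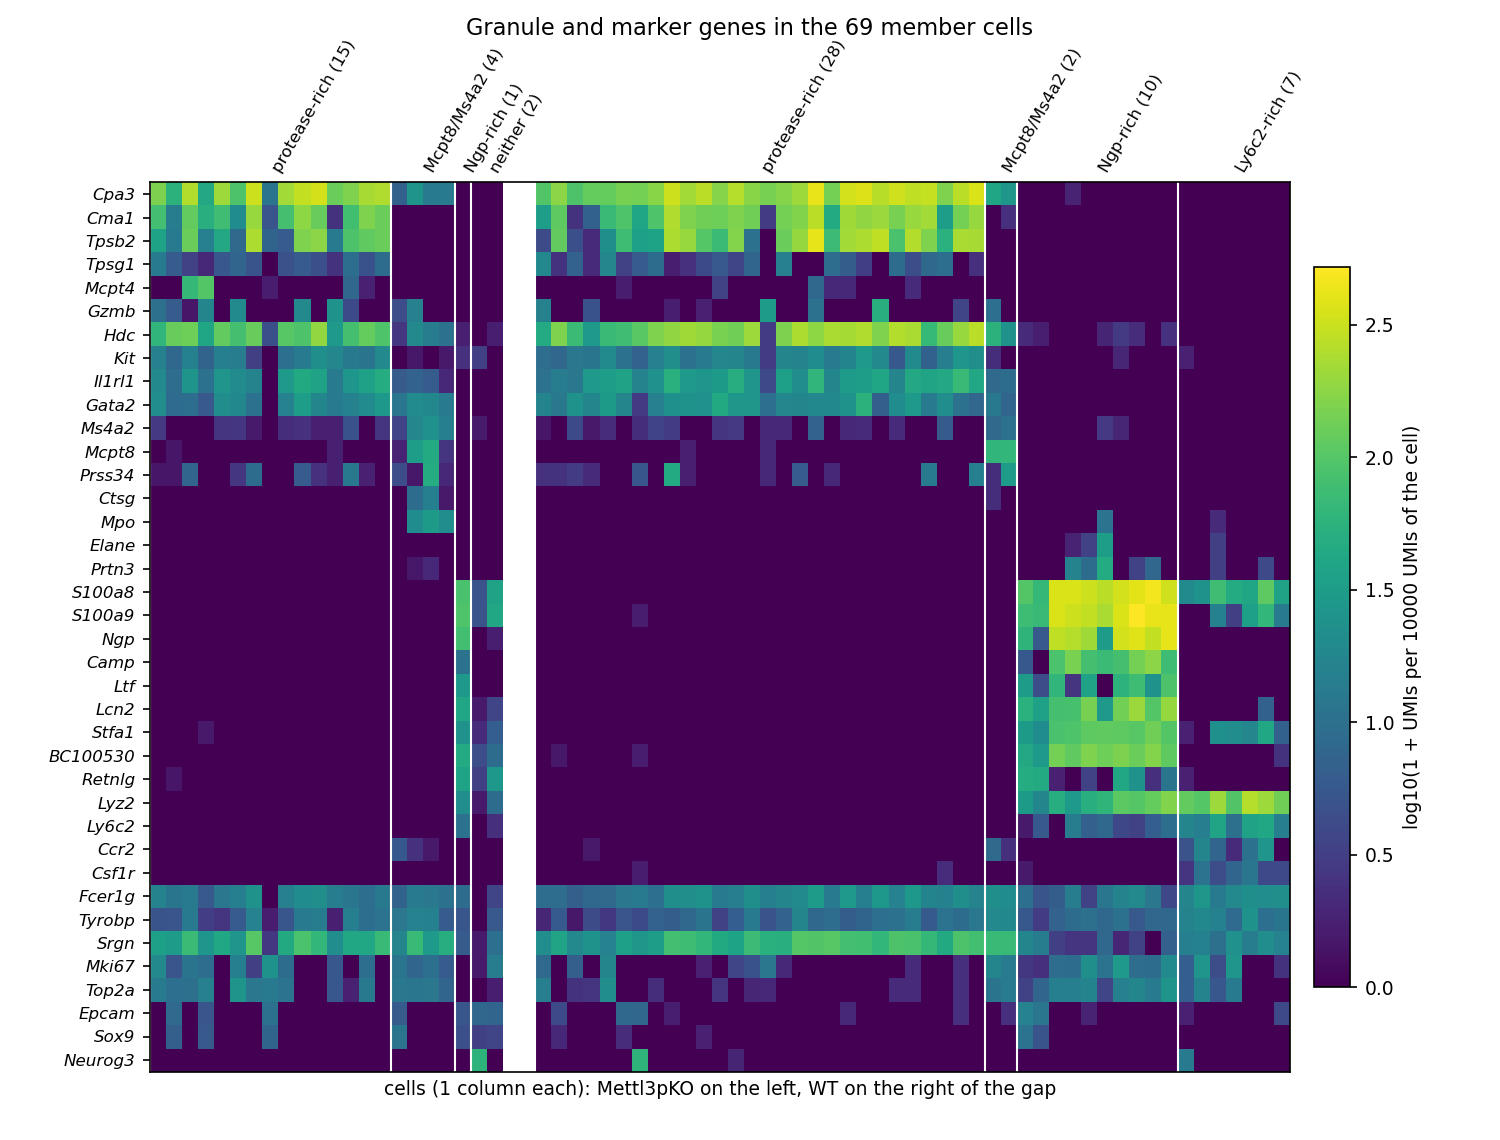
Levels of 38 genes (rows) in each of the 69 cells (columns), as log10 of 1 plus UMIs per 10000, with the 22 Mettl3pKO cells left of the gap and the 47 WT cells right of it, grouped by kind. Cma1 and Tpsb2 lie mostly in the 15 and 28 protease-rich cells, Mcpt8 and Ms4a2 mark 4 and 2 cells, and the Ngp block is present in 1 Mettl3pKO cell and 10 WT cells.

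The start regions of some of the genes that separate the kinds are shown, since mast cell and neutrophil programmes are known to use different factors, GATA factors in mast cells and C/EBP factors in neutrophils. Each is the 250 bases before the RefSeq start on build GRCm38.p6, written 5′ to 3′ on the strand of the gene; capitals mark GATAA or its reverse complement in the mast cell and basophil genes, and TTNNGNAA on either strand in the neutrophil genes. The regions are Cpa3 at chr3:20242182-20242431 (minus strand), Cma1 at chr14:55944676-55944925 (minus), Ms4a2 at chr19:11623720-11623969 (minus), Ngp at chr9:110419558-110419807 (plus) and S100a9 at chr3:90695722-90695971 (minus).
Cpa3: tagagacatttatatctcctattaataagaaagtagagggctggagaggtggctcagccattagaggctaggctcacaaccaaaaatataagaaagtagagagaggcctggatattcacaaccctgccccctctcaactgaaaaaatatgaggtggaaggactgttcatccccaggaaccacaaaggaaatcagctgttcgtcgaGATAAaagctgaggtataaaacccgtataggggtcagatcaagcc
Cma1: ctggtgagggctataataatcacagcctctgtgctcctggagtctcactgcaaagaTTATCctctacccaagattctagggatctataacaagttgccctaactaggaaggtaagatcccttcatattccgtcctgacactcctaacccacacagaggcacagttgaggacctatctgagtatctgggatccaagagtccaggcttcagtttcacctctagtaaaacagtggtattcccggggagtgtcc
Ms4a2: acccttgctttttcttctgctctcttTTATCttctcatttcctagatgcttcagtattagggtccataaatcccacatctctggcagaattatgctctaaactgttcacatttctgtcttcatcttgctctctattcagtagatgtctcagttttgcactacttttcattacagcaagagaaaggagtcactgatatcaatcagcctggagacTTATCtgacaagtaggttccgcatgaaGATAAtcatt
Ngp: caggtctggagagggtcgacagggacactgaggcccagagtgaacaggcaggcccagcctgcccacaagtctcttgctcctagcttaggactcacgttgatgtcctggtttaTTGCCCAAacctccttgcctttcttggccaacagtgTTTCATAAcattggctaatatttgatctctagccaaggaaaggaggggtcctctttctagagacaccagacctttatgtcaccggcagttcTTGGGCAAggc
S100a9: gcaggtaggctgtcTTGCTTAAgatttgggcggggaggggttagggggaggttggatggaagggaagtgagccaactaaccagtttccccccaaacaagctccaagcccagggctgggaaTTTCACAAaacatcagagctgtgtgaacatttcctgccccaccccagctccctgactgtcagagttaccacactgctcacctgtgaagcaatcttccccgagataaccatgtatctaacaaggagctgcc
GATAA was present at 1 place in each of the Cpa3 and Cma1 windows and at 3 places in that of Ms4a2, and TTNNGNAA at 3 places in that of Ngp and 2 in that of S100a9. Searched on both strands, GATAA was in 7418 of 32851 windows of this length (22.6%), in 5 of 9 windows of 8 mast granule protease genes and in 4 of 11 windows of neutrophil secondary granule genes. TTNNGNAA was in 12104 of all windows (36.8%), in 1 of the 9 protease windows and in 8 of the 11 secondary granule windows. The windows of Hdc and Mcpt8 held no GATAA and that of Camp no TTNNGNAA. The S100a9 window also held GATAA, left in lower case because each motif was marked only in its own gene group. Such matches describe the letters of these windows and show neither binding nor a cause of the levels.

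Granule proteases varied widely among the mast-like cells of each library. The carboxypeptidase gene Cpa3, a rule gene, ran from 5.91 to 350 UMIs per 10000 with a median of 153 over the 19 mast-like cells of Mettl3pKO, and from 26.8 to 421 with a median of 175 over the 30 of WT. The tryptase gene Tpsb2 (chr17:25366305-25369098, GRCm38), which the rule did not use, ran from 0 to 241 with a median of 14.2 in Mettl3pKO and from 0 to 411 with a median of 92.0 in WT. The ranges overlapped widely for both genes. Summed over the cells of each library, Tpsb2 stood at 5481 CPM in Mettl3pKO and 10604 CPM in WT, a ratio of 0.517 (0.489 to 0.547).

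**Figure D2:**
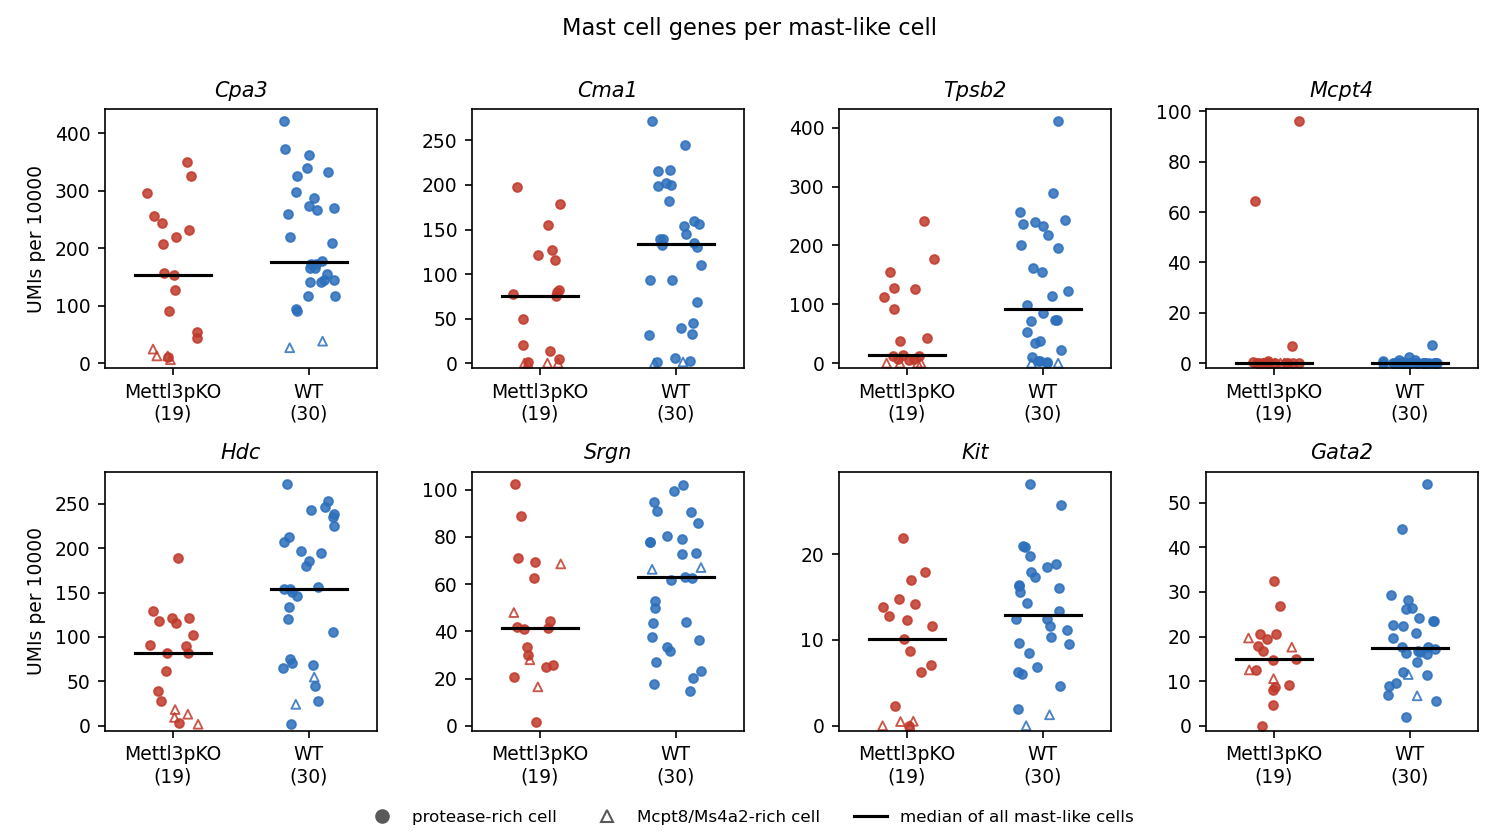
UMIs per 10000 of 8 genes in each mast-like cell (points), with Mettl3pKO left of WT in every panel. The ranges of the libraries overlap for each gene, and Tpsb2 has its median at 14.2 in the 19 Mettl3pKO cells and 92.0 in the 30 WT cells.

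Of the 11 genes on the granule protease list 8 had enough UMIs (20 or more over both libraries), of which 3 were at least 1.5-fold higher and 3 at least 1.5-fold lower in Mettl3pKO, with a median log2 ratio of -0.52. Without the rule genes Cpa3 and Cma1 that median was 0.076. Among all 5371 genes measured in these cells 18.9% were at least 1.5-fold higher and 11.6% at least 1.5-fold lower, with a median of 0.05. The lower genes were Cma1 (6234 CPM in Mettl3pKO and 10843 CPM in WT), a chymase and rule gene, at 0.575 (0.545 to 0.607), Tpsb2, and the second tryptase Tpsab1 at 0.627 (0.406 to 0.954) on 37 and 64 UMIs. These differences shrank without the Mcpt8/Ms4a2-rich cells and at matched depth: in the protease-rich cells of at least 13000 UMIs, 12 in Mettl3pKO and 10 in WT, the ratio was 1.00 for Tpsb2 (0.929 to 1.09) and 0.975 for Cma1, and the list's median was 0.15. Tpsab1 stood at 1.28 (0.705 to 2.43) among all mast-like cells of that depth, on 37 and 17 UMIs. The direction of the list therefore differed between these sets of cells. Tpsb2 and Tpsab1 are close copies, as are Mcpt4 and other chymases, and how reads that match several copies were counted is not stated.

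Of the higher genes of the list, Mcpt4 and Ctsg came from few cells. Mcpt4 (chr14:56059629-56062313), the chymase typical of connective tissue mast cells, gave 329 UMIs in Mettl3pKO and 14 in WT (ratio 25.5, 15.0 to 47.1), but it was present in 5 of 19 and 6 of 30 cells, and 2 Mettl3pKO cells held 183 and 135 of the UMIs. Ctsg, cathepsin G, gave 45 UMIs in 3 Mettl3pKO cells and 1 UMI in WT, all in cells of the Mcpt8/Ms4a2-rich kind. Granzyme B, Gzmb, gave 196 and 133 UMIs (ratio 1.60, 1.28 to 2.01) in 10 of 19 and 9 of 30 cells, and stood at 2.91 (2.05 to 4.21) in cells of at least 13000 UMIs. Cma1, Mcpt4, Mcpt8, Ctsg and Gzmb lie in this order along chromosome 14, between bases 55941451 and 56262260, and each cell with UMIs of Mcpt4 also held Cma1, each cell with UMIs of Ctsg also held Mcpt8, and Gzmb occurred in cells of both kinds.

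Genes for the granule's amines and its proteoglycan core were not higher as a group. Of 9 genes 0 were at least 1.5-fold higher and 2 at least 1.5-fold lower in Mettl3pKO (median log2 ratio -0.40), against 18.9% and 11.6% of all genes, the 2 being Hdc, which makes histamine, and Hs3st1, a heparan sulfate sulfotransferase gene. Hdc ran from 1.69 to 188 UMIs per 10000 with a median of 82.3 in Mettl3pKO cells and from 1.99 to 273 with a median of 154 in WT cells, and its summed level was 7088 CPM and 13757 CPM (ratio 0.515, 0.490 to 0.541). In protease-rich cells of at least 13000 UMIs the Hdc ratio was 0.858 (0.804 to 0.915). Hs3st1 stood at 0.523 (0.386 to 0.703) on 68 and 141 UMIs, and at 0.418 among mast-like cells of at least 13000 UMIs. Srgn, which encodes the proteoglycan core serglycin, was at 0.839 (0.783 to 0.899) over all mast-like cells. It was at 1.27 (1.15 to 1.40) in those of at least 13000 UMIs, where 4 Mcpt8/Ms4a2-rich cells were left in Mettl3pKO and 0 in WT. Its direction thus differed between these sets of cells. The serotonin genes also differed in part: Slc18a2, the vesicular amine transporter, was at 0.715 (0.565 to 0.902), Tph1, the serotonin synthesis enzyme, at 1.11 (0.693 to 1.79), and Slc6a4, the serotonin uptake transporter, at 0.373 (0.256 to 0.534) with UMIs in 8 of 19 and 21 of 30 cells. Slc6a4 stood at 0.920 (0.543 to 1.59) in cells of at least 13000 UMIs.

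Among the receptors, KIT and the interleukin-33 receptor were lower and the IgE receptor beta chain was higher in Mettl3pKO. Kit ran from 0 to 21.8 UMIs per 10000 with a median of 10.1 in Mettl3pKO and from 0 to 28.2 with a median of 12.9 in WT, with sums of 835 and 1271 CPM (ratio 0.657, 0.564 to 0.765). Il1rl1 had 1749 CPM in Mettl3pKO and 2747 CPM in WT (0.637, 0.574 to 0.706). In protease-rich cells alone these ratios were 0.835 (0.716 to 0.972) and 0.770 (0.692 to 0.857), nearer to 1, and at 13000 UMIs or more in those cells 0.939 (0.772 to 1.14) and 0.815 (0.708 to 0.936). Ms4a2, the beta chain, gave 137 and 51 UMIs (2.91, 2.10 to 4.10) over all mast-like cells but 24 and 38 UMIs (0.875, 0.502 to 1.5) in the protease-rich ones. The gamma chain gene Fcer1g, a rule gene, was at 0.789, and the alpha chain gene Fcer1a had 8 and 16 UMIs. Mrgprb1 and Mrgprb2, Mrgprb2 encoding the receptor for basic peptides on mouse mast cells, were seen in 1 Mettl3pKO cell each and in 3 and 4 WT cells. Over the 19 receptor and signalling genes 2 were at least 1.5-fold higher and 5 at least 1.5-fold lower, with a median log2 ratio of -0.25, against 18.9% and 11.6% of all genes. In mast-like cells of at least 13000 UMIs this turned round, with 6 of 15 higher, 1 lower and a median of 0.38 (17.6% and 13.2% of all genes). That set kept 4 Mcpt8/Ms4a2-rich cells in Mettl3pKO and 0 in WT, so kind changed along with depth. In protease-rich cells of that depth 1 of 12 was higher and 0 lower, with a median of 0.16, against 14.7% and 12.5% of all genes.

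Transcription factors of the lineage were not all shifted to 1 side. Gata2, needed for mast cell and basophil development, ran from 0 to 32.5 UMIs per 10000 with a median of 15.0 in Mettl3pKO and from 1.87 to 54.2 with a median of 17.5 in WT; the summed ratio was 0.761 (0.676 to 0.856). Mitf was at 0.723 (0.461 to 1.12) and Gata1 at 1.84 (1.07 to 3.22) on 39 and 23 UMIs. Runx1, a broad blood factor, had 76 and 22 UMIs (3.75, 2.31 to 6.32), and Cebpa, the early granulocyte factor, 26 and 2. In the protease-rich cells Runx1 had 5 and 14 UMIs (0.495, 0.139 to 1.45) and Cebpa 3 and 1, so that most of their UMIs in Mettl3pKO lay in the 4 Mcpt8/Ms4a2-rich cells. Over 9 factors measured, 3 were at least 1.5-fold higher and 1 at least 1.5-fold lower (median log2 ratio -0.37), against 18.9% and 11.6% of all genes. At 13000 UMIs or more, where WT held 0 Mcpt8/Ms4a2-rich cells, the direction of the median turned, with 4 of 8 higher, 1 lower and a median of 0.32 (17.6% and 13.2% of all genes). In protease-rich cells of that depth 2 of 6 were higher and 1 lower, with a median of 0.27 (14.7% and 12.5% of all genes). In mast-like cells of that depth with under 10 epithelial UMIs it was 2 of 7 and 1, with a median of -0.02 (16.2% and 15.8%). The eicosanoid enzymes gave 1 of 5 higher and 0 lower, against 18.9% and 11.6% of all genes. Alox5, which starts leukotriene synthesis, was at 1.20 (0.980 to 1.47), and Ltc4s had 0 UMIs in both.

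**Figure D3:**
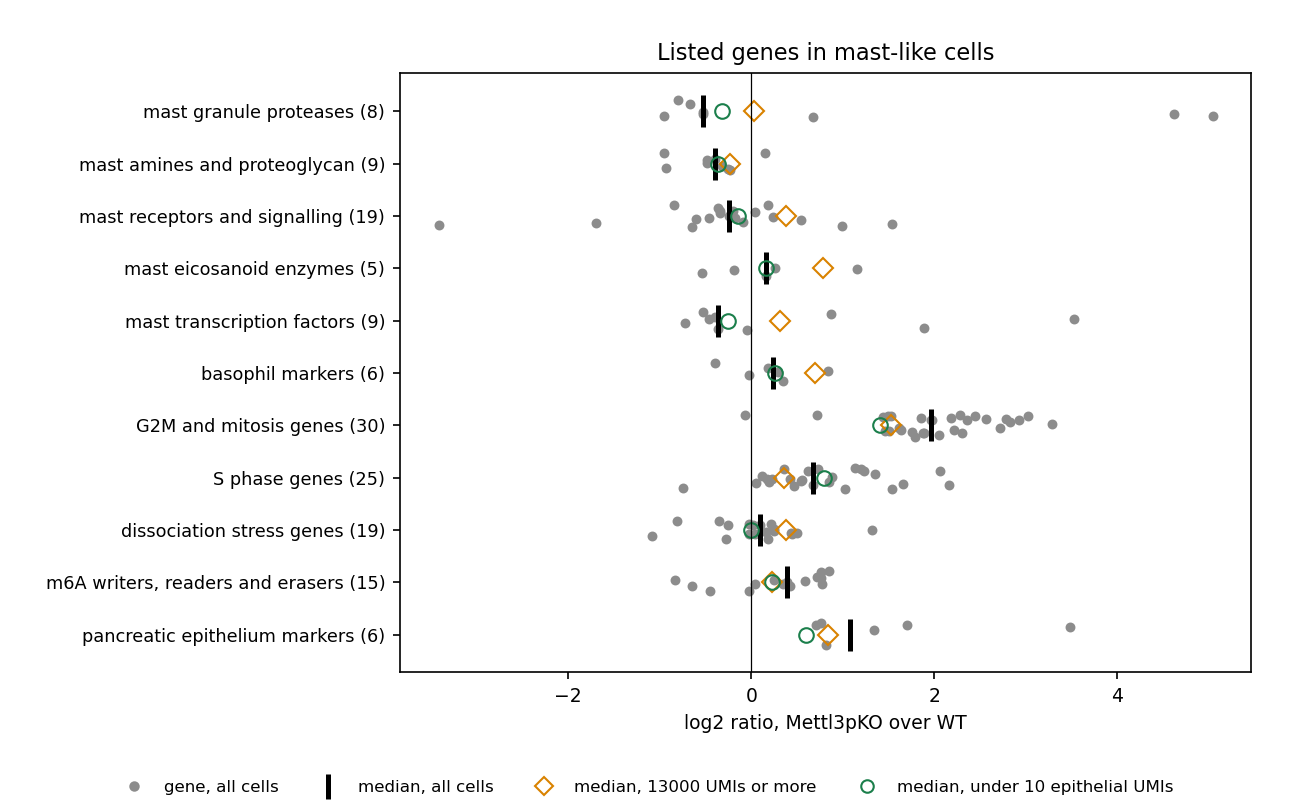
Log2 ratios of Mettl3pKO to WT in mast-like cells for the genes of each list (points) and the list's median in all mast-like cells, in those of at least 13000 UMIs and in those with under 10 epithelial UMIs. The 30 G2/M and mitosis genes lie apart from the others, with a median of 1.97, whereas the 8 protease genes have a median of -0.52 that becomes 0.03 at 13000 UMIs or more.

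Cell division genes were higher in the mast-like cells of Mettl3pKO than in those of WT. The summed UMIs of 30 G2/M and mitosis genes ran from 3 to 349 per cell with a median of 98 in Mettl3pKO and from 1 to 156 with a median of 7 in WT; per 1000000 UMIs the medians were 6374 and 530 and the sums 7666 and 2141. The ranges overlapped, with cells at both ends in each library. Of the 30 genes, 29 were at least 1.5-fold higher in Mettl3pKO and 0 lower (median log2 ratio 1.97), against 18.9% and 11.6% of all genes. The exception was Kif23, a cytokinesis kinesin gene, at 0.950 (0.718 to 1.26). Of 25 S phase genes 14 were at least 1.5-fold higher and 1 lower (median 0.68). In cells of at least 13000 UMIs that list had 6 of 22 above the 1.5-fold limit in Mettl3pKO and 0 below it (median 0.36; 17.6% and 13.2% of all genes).

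Mki67, a marker of dividing cells, was at 751 CPM in Mettl3pKO and 275 CPM in WT (ratio 2.73, 2.15 to 3.48), with UMIs in 14 of 19 and 12 of 30 cells. Top2a, the topoisomerase that untangles chromosomes, was at 892 and 264 CPM (3.38, 2.67 to 4.30). The cyclin Ccna2 was at 7.79 (4.60 to 14.1), the mitotic ubiquitin enzyme gene Ube2c at 5.99 (4.26 to 8.61), the spindle protein gene Prc1 at 7.30 (4.22 to 13.5), the cyclin Ccnb1 at 8.54 (4.08 to 20.6) and the spindle protein gene Nusap1 at 7.14 (3.87 to 14.4). Each of these genes had UMIs in 12 or more of the 19 Mettl3pKO cells. Cenpf, a kinetochore gene, was at 10.2 (5.44 to 21.0), with 42 of its 103 Mettl3pKO UMIs in 1 cell, and at 3.11 (1.5 to 6.93) without cells of 10 or more epithelial UMIs.

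The difference in the list was somewhat smaller at matched depth and smaller again without cells that held epithelial RNA. In mast-like cells of at least 13000 UMIs, 28 of 30 genes were at least 1.5-fold higher and 0 lower (median 1.53; 17.6% and 13.2% of all genes), and in protease-rich cells 28 of 29 higher and 0 lower (median 2.05; 17.1% and 11.6%). Without cells of 10 or more epithelial UMIs, leaving 15 and 27, it was 26 of 28 higher and 0 lower (median 1.41; 16.0% and 12.9%). With both limits, leaving 12 and 7 cells, it was 18 of 26 higher and 1 lower (median 1.03; 16.2% and 15.8%), and Mki67 stood at 1.53 (1.12 to 2.13), Top2a at 1.49 (1.13 to 1.99) and Ccna2 at 2.88 (1.53 to 5.87). The pancreatic epithelium list itself had UMIs of 8 of 8 genes in Mettl3pKO mast-like cells, 0 to 72 per cell with a median of 1, and of 7 of 8 in WT (Pdx1 at 0), 0 to 55 with a median of 1. Its summed level was 832 CPM in Mettl3pKO and 373 CPM in WT. Of its measured genes 6 of 6 were at least 1.5-fold higher (median log2 ratio 1.08), against 18.9% of all genes. The mesenchyme list stood at 1429 and 1093 CPM. Of its measured genes 3 of 4 were higher and 0 lower (median 1.39), against 18.9% and 11.6% of all genes. The cell with the most G2/M UMIs, 349, held 56 epithelial UMIs. The acinar enzyme list gave 13 to 44 UMIs per cell in Mettl3pKO and 5 to 517 in WT. The part of these RNAs in the difference, beyond the values given, was not tested.

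**Figure D4:**
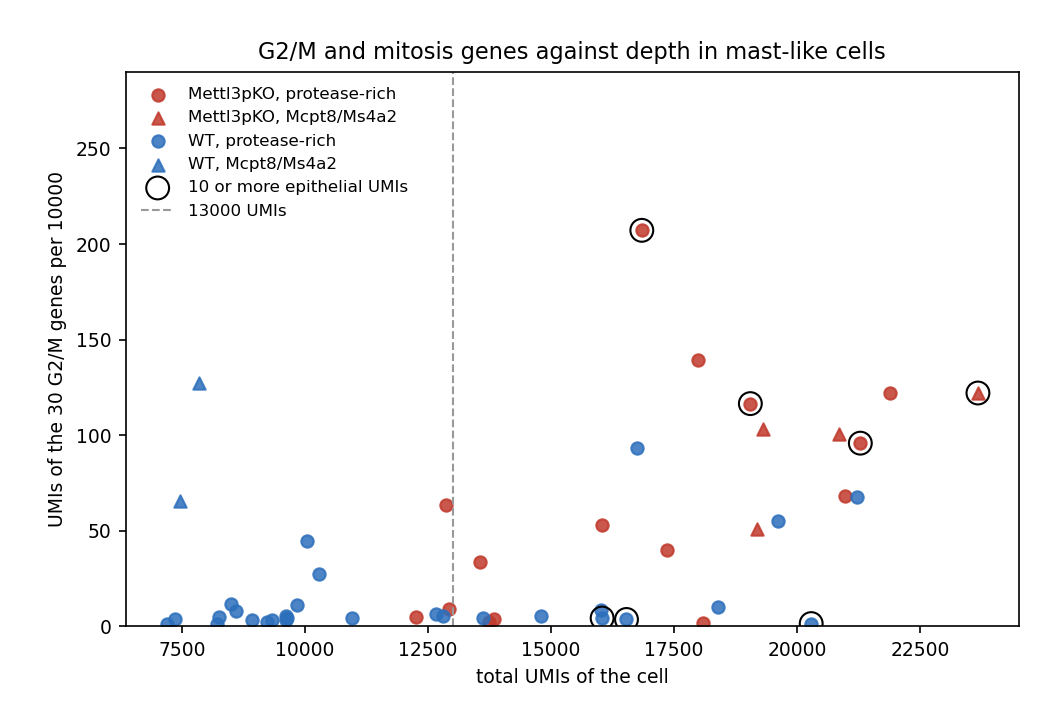
Summed UMIs of 30 G2/M and mitosis genes per 10000 (vertical axis) against total UMIs (horizontal axis) for each mast-like cell, Mettl3pKO and WT, with the 13000 UMI limit dashed and cells of 10 or more epithelial UMIs circled. Of the 19 Mettl3pKO cells 16 lie right of the limit, against 10 of the 30 WT cells.

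As a share of cells the interval of the ratio included 1. That interval treats the counts as rare events, so it is too wide for shares this large and cannot decide whether the shares differed. With each cell thinned to 6000 UMIs, 14 of 19 mast-like cells of Mettl3pKO (73.7%, 48.8% to 90.9%) and 13 of 30 of WT (43.3%, 25.5% to 62.6%) held 2 or more UMIs over 9 proliferation genes, a ratio of 1.70 (0.741 to 3.93). Thinned to 10000 UMIs, which left out 15 shallower WT cells, it was 14 of 19 and 10 of 15 (ratio 1.11, 0.457 to 2.78), and 10 of 15 in each library in protease-rich cells. Without thinning it was 14 of 19 and 16 of 30, and among cells of at least 13000 UMIs 13 of 16 and 4 of 10 (ratio 2.03, 0.628 to 8.55). The same measure in macrophage-like cells gave 15 of 21 in Mettl3pKO and 22 of 52 in WT (71.4% and 42.3%; ratio 1.69, 0.815 to 3.41), and among those of at least 13000 UMIs 12 of 16 and 10 of 15 (1.12, 0.445 to 2.91). Whether the libraries differed in this measure more for mast-like cells than for macrophage-like ones was not tested.

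Within each library, protease-rich cells with proliferation UMIs carried less tryptase. Tpsb2 had a median of 13 UMIs per 10000 in the 10 Mettl3pKO cells with 2 or more proliferation UMIs and 127 in the 5 with fewer, and a median of 21.5 in 11 such WT cells and 155 in the other 17. The ranges overlapped, from 4.99 to 241 and from 42.6 to 176 in Mettl3pKO and from 0 to 256 and from 33.7 to 411 in WT. The 10 Mettl3pKO cells included those with 60, 67 and 56 epithelial UMIs, which held 25, 27 and 11 UMIs of Tpsb2. In WT the cells with 18, 55 and 35 epithelial UMIs lay among the 17. The part of this RNA in the difference was not tested. Srgn had medians of 31.7 and 62.6 in Mettl3pKO and 49.8 and 63.0 in WT. Hdc did not follow in Mettl3pKO, with medians of 92.0 and 91.4, and had medians of 134 and 180 in WT. Across cells Tpsb2 had a Spearman rank correlation with the G2/M list of -0.61 over 15 Mettl3pKO cells and -0.50 over 28 WT cells, and with Cma1 of 0.80 and 0.90. The cells of a library share its preparation, and values per 10000 share each cell's total, with which Tpsb2 correlated at -0.29 and -0.57; these are descriptions.

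The naming rule, which took the 12 highest and 12 lowest ratios by their interval, gave few genes of granules. Apart from the division genes and Mcpt4, the higher ones were Mpo, the chemokine Cxcl2, Sox9, Anxa1 and Ccnd1, each from few cells: Mpo from 3, Cxcl2 with 38 of 51 UMIs in 1 cell, Ccnd1 with 40 of 59 UMIs in 1 cell. Without cells of 10 or more epithelial UMIs Ccnd1 stood at 1.22 (0.281 to 5.31). Sox9, an epithelial factor, gave 56 and 5 UMIs, and 0 and 1 without cells of 10 or more epithelial UMIs. Anxa1, which encodes annexin A1, had 115 and 22 UMIs over mast-like cells but 1 and 7 in protease-rich cells.

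Lower in Mettl3pKO, with UMIs in 16 and 27 of the 30 WT cells, were Clec12b, which encodes an inhibitory C-type lectin receptor, and Tob2, of an antiproliferative gene family. Clec12b had UMIs in 3 of 19 Mettl3pKO cells and 16 of 30 WT cells, 31 and 132 in all (0.255, 0.166 to 0.379), and stood at 0.286 (0.180 to 0.445) at 13000 UMIs or more. Thinned to 6000 UMIs it was seen in 2 of 19 and 16 of 30 cells, against 0.391% and 0.509% of the cells of neither kind. Of its 31 Mettl3pKO UMIs 24 lay in 1 cell. Tob2 had UMIs in 15 of 19 and 27 of 30 cells (0.342, 0.236 to 0.488) and stood at 0.300 (0.189 to 0.466) at 13000 UMIs or more. Slco2b1, an organic anion transporter gene, was at 0.156 (0.0863 to 0.265) and at 0.340 (0.168 to 0.667) at that depth, and the ephrin gene Efnb2 at 0.201 (0.0912 to 0.398). Calca, Hapln1, Ankrd26 and 1700006J14Rik stood between 0.252 and 0.330. At 13000 UMIs or more Ankrd26 was at 0.241 (0.0978 to 0.545), Calca at 0.570 (0.327 to 0.992), Hapln1 at 0.664 (0.227 to 1.98) and 1700006J14Rik at 0.541 (0.216 to 1.34), the intervals of Hapln1 and 1700006J14Rik including 1. Neurog3, the endocrine progenitor factor, gave 0 and 93 UMIs, 92 of them in 1 WT cell.

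Because the deletion concerned m6A, the 15 measured genes of its writers, readers and erasers were also read in the mast-like cells. Of these 6 were at least 1.5-fold higher and 2 at least 1.5-fold lower in Mettl3pKO, with a median log2 ratio of 0.39, against 18.9% and 11.6% of all genes. In cells of at least 13000 UMIs it was 3 of 14 higher and 3 lower (median 0.22), against 17.6% and 13.2% of all genes. In those with under 10 epithelial UMIs it was 3 of 13 and 3 (median 0.23), against 16.0% and 12.9%. With both limits it was 0 of 9 and 1 (median -0.025), against 16.2% and 15.8%. The demethylase gene Alkbh5 gave 57 and 34 UMIs (1.82, 1.17 to 2.87), the reader Ythdf2 41 and 26 (1.71, 1.02 to 2.91) and the nuclear reader Ythdc1 22 and 43 (0.555, 0.316 to 0.948). Each rested on under 100 UMIs. In mast-like cells of at least 13000 UMIs Alkbh5 was at 1.84 (1.03 to 3.47) and Ythdc1 at 0.539 (0.284 to 1.02).

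The Mcpt8/Ms4a2-rich cells were few, and their leading genes included several known from mouse basophils. Mcpt8, the basophil protease, and Ms4a2 had set the kind; Prss34, a further basophil protease, Cd200r3 and Cd69 had not. Mcpt8 gave 2, 66, 86 and 3 UMIs in the 4 Mettl3pKO cells and 48 and 46 in the 2 WT cells. Ms4a2 gave 6, 36, 44 and 27 UMIs in Mettl3pKO and 6 and 7 in WT. All 6 cells had Gata2 (25, 41, 34 and 24 UMIs in Mettl3pKO, 9 and 5 in WT) and Cpa3 (14, 51, 24 and 24, and 30 and 20), and none had Tpsb2.

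The last 3 of these Mettl3pKO cells also held Mpo, myeloperoxidase of early granulocytes, with 42, 56 and 39 UMIs, whereas the WT cells had 0 and 0. Over all mast-like cells Mpo had 137 UMIs in Mettl3pKO, all from these 3 cells, and 0 in WT, and the lower limit of the exact interval of the ratio was 39.7, or 21.6 at 13000 UMIs or more. At that depth WT held 0 Mcpt8/Ms4a2-rich cells, so the second limit does not compare cells of this kind at matched depth. Elane, another primary granule gene, was at 0 in all 6 cells. Ctsg had 0, 17, 27 and 1 UMIs in Mettl3pKO and 1 and 0 in WT. Plac8 had 21, 21, 29 and 52 UMIs and 5 and 6. The 4 Mettl3pKO cells each had at least 19179 UMIs, against 7844 and 7457 in the WT cells, so low counts in WT are less informative. The cell with 2 Mcpt8 UMIs held 72 epithelial UMIs, and the cell with 3 held 2578 UMIs of erythroid genes. As shares of cells the kind stood at 0.110% in Mettl3pKO and 0.0313% in WT (ratio 3.52, 0.505 to 38.9).

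The Ngp-rich cells were set apart by Ngp, Camp, Ltf and Lcn2, so the values of these genes describe the cells and support no label. Ngp (chr9:110419747-110423012), the neutrophilic granule protein gene, gave 105 UMIs in the Mettl3pKO cell and 7 to 377 with a median of 275.5 in the 10 WT cells. The lactoferrin gene Ltf gave 37 UMIs in Mettl3pKO and 0 to 80 with a median of 47.5 in WT, and Lcn2, an iron-binding secondary granule protein gene, 53 and 32 to 176 with a median of 104. Camp, the cathelicidin gene, gave 13 UMIs against 0 to 183 with a median of 92.5. The Mettl3pKO cell lay inside the WT range for each of these genes. Of genes not used to set the kind, Stfa1 and BC100530, stefin A genes of neutrophils, gave 32 and 61 UMIs in Mettl3pKO and 30 to 132 and 42 to 187 in WT; stefins form a family of close copies whose reads may be split.

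**Figure D5:**
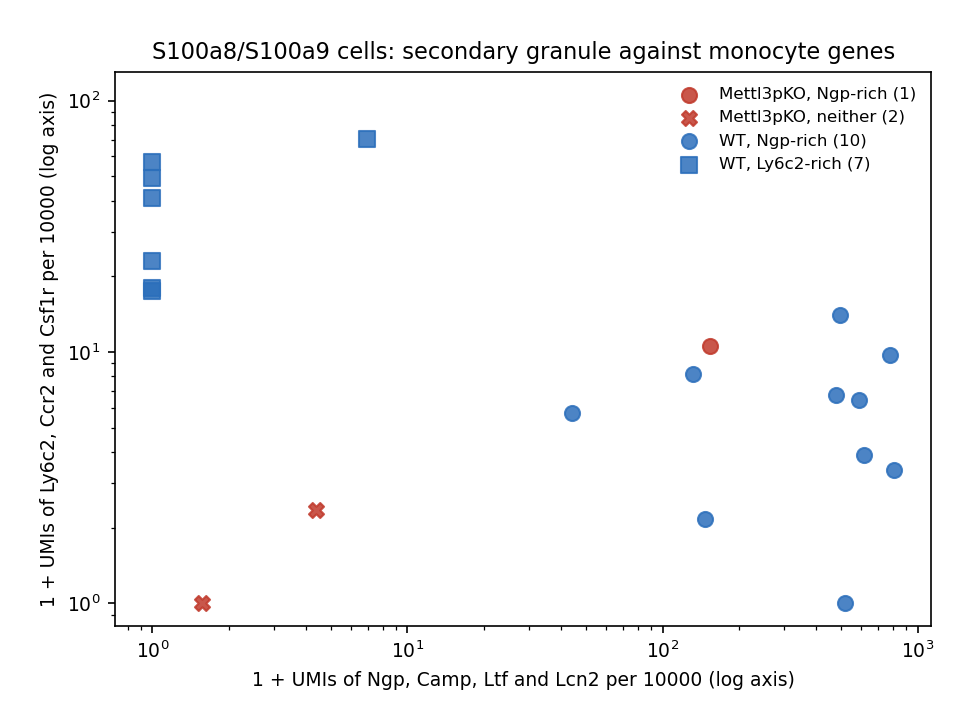
Summed UMIs per 10000 of Ngp, Camp, Ltf and Lcn2 against those of Ly6c2, Ccr2 and Csf1r in the 3 Mettl3pKO and 17 WT granulocyte-like cells, on log axes. The 10 WT Ngp-rich cells and the 7 WT Ly6c2-rich cells lie apart, and 1 Mettl3pKO cell lies with the Ngp-rich ones. The axes are the sums that set these kinds, so the separation follows from their definition.

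Genes of other granule stages were sparser. Of primary granule genes, Elane was at 0 in the Mettl3pKO Ngp-rich cell and present in 3 of the 10 WT cells with up to 36 UMIs, Prtn3 at 0 and present in 5 WT cells with up to 51, and Mpo present in 1 WT cell with 11. Of late genes, Retnlg gave 50 UMIs in the Mettl3pKO cell and 0 to 82 with a median of 5 in WT, and the collagenase gene Mmp8 27 UMIs and 0 to 32 with a median of 0. The Mettl3pKO cell, which held 31 epithelial UMIs, stood in the upper part of the WT range for both late genes. The top of that range came from the WT cells with 120 and 79 epithelial UMIs, with 82 and 67 UMIs of Retnlg and 32 and 25 of Mmp8. The other WT cells had 0 UMIs of Mmp8 and at most 43 of Retnlg. Fcnb, a ficolin gene, was at 0 in it and had a median of 22 in WT. All 10 WT Ngp-rich cells held 2 or more proliferation UMIs after thinning, and their G2/M list gave 31 to 236 UMIs, against 16 in the Mettl3pKO cell. The 236 lay in the WT cell with 79 epithelial UMIs, and the next highest WT cell held 188. As shares of cells the kind stood at 0.0276% in Mettl3pKO and 0.157% in WT (ratio 0.176, 0.00406 to 1.24), and at 13000 UMIs or more at 1 and 3 cells.

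The 7 Ly6c2-rich cells, all in WT, carried genes of monocytes together with part of the neutrophil lists, so the granulocyte label is not clear for them. S100a8 gave 24 to 75 UMIs with a median of 30 and S100a9 0 to 42 with a median of 8, whereas Ngp, Camp, Ltf and Cebpe were at 0 in all 7 and Lcn2 gave 4 UMIs in 1. The list of 12 secondary granule genes gave 104 to 218 UMIs per cell, from Lyz2, Cybb, Cyba, Anxa1 and Lcn2, and 944 of the 1091 UMIs were those of Lyz2, which the monocyte list holds too. The list of 25 tertiary granule and mature neutrophil genes gave 28 to 99 UMIs per cell from 19 genes, with Mmp8, Stfa3, Hp and Trem1 in all 7 cells and Stfa1 in 6. Their Ly6c2 counts were 8 to 34 with a median of 21, and Ccr2, the receptor that brings monocytes out of the marrow, was present in 6 of the 7 with up to 17 UMIs. The lysozyme gene Lyz2 gave 84 to 193 UMIs with a median of 142, and F13a1, a coagulation factor gene of monocytes, 5 to 12 with a median of 10. Of 10 monocyte markers all had UMIs, 128 to 267 per cell, and of 14 macrophage markers 5 had UMIs, 2 to 21 per cell, with C1qa, C1qb and C1qc at 0. The Ngp-rich cells shared part of this. Their Ly6c2 counts reached 16 in WT and 13 in the Mettl3pKO cell, and Lyz2 gave 25 to 111 UMIs in WT. The monocyte list gave 38 to 125 UMIs per WT Ngp-rich cell, with Ccr2 at 0. The totals of the Ly6c2-rich cells were 6704 to 12783 UMIs, all under 13000. Apart from the cell with 12783, they held 10245 UMIs or fewer, below the lowest Mettl3pKO total of 10719. The Mettl3pKO cells read here thus do not cover the depth of most of these cells. Their absence in Mettl3pKO and the limits that follow cannot decide whether the shares differed. In the Mettl3pKO library, where 84.4% of cells had 13000 UMIs or more, 0 of 3624 cells allows a share of up to 0.0828% when 3 counts are taken as the limit (Clopper-Pearson upper limit 0.102%), against 0.110% (0.0441% to 0.226%) in WT. The interval of the ratio reached 1.22 and so included equal shares. At 13000 UMIs or more neither library held such a cell.

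All 3 granulocyte-like cells of Mettl3pKO held RNA of the pancreatic epithelium. Their acinar enzyme UMIs were 114, 474 and 542, against 8 to 47 with a median of 17 in the 17 WT cells, and their epithelium marker UMIs 31, 53 and 37, against 0 to 120 with a median of 0. The 2 of them without either gene block held 7 and 53 UMIs of S100a8 and 7 and 61 of S100a9, and the first held 99 UMIs of Neurog3. They also held late neutrophil genes, 4 and 40 UMIs of Retnlg and 3 and 13 of Mmp8. The list of 25 tertiary granule and mature neutrophil genes gave 26 and 178 UMIs in them. Of 14 macrophage markers all were at 0 in these 3 cells. Without members of 10 or more epithelial UMIs no granulocyte-like cell was left in Mettl3pKO. With 3 cells in Mettl3pKO no gene ratios between the libraries were made for this kind.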

How the data were processed

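Single-cell RNA was measured in 1 Mettl3pKO and 1 WT library. The authors deposited unscaled integer UMI counts for every cell and gene, made with the BD WTA Rhapsody Analysis Pipeline 1.8, per the file headers; the submitters' processing notes name build mm10 and Seurat, whose role is not described by those notes. Each table ended in 1 incomplete row, which was dropped, and cells ran from deep to shallow, so shallower cells may be missing here. That leaves 3624 Mettl3pKO cells with 65779771 UMIs and 6384 WT cells with 80011421 UMIs. The tables shared 33 cell labels, 0 of them among the members.

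Counts were summed per library and kind and given as CPM, UMIs per 1000000. Genes with at least 20 UMIs over both libraries were compared, log2 ratios had 0.5 UMIs added, and a 1.5-fold difference was counted. Ratios carry exact conditional binomial and shares Clopper-Pearson 95% intervals. The ratio interval treats counts as rare events and is too wide where a large share of cells is counted. UMIs are counts of molecules, and the intervals hold no spread between cells or embryos. Cells in which a gene was seen after thinning, and cells with proliferation UMIs, were counted at 6000 UMIs per cell unless stated. Shares of members and kinds among all cells were not thinned. Counts of cells with UMIs of a gene were not thinned unless stated. Proliferation was read over Aurkb, Birc5, Ccnb1, Cdk1, Cenpf, Mki67, Top2a, Tpx2 and Ube2c. No doublet caller was run. Macrophage-like cells held at least 10 UMIs of C1qa, C1qb, C1qc and Csf1r, more than of the 4 marker genes. A granulocyte-like cell was Ngp-rich with 10 or more UMIs of Ngp, Camp, Ltf and Lcn2, more than of Ly6c2, Ccr2 and Csf1r, and Ly6c2-rich with more UMIs of those 3 genes than of the 4. The naming rule took Mettl3, the 25 leading genes per kind and the 12 highest and 12 lowest ratios by the interval bound nearest 1, among genes that reached 100 CPM in 1 library and 50 UMIs over both, without mitochondrial, ribosomal, globin, sex-linked, acinar enzyme and islet hormone genes.

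The members, rule and gene lists were chosen with earlier results of these data known; kinds and the alternatives without a kind or without epithelial RNA were chosen after the values were seen. The computation was tested on simulated data. Alternatives changed the rule's minimum, the dominance of 1 marker pair, cell filters, depth, sex, thinning, scaling, gene minimum and fold. Gene positions are from GENCODE on GRCm38 and promoter sequences from RefSeq. Python 3.11.15, numpy 2.4.6, scipy 1.17.1, pandas 2.3.3 and matplotlib 3.10.9 were used.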

Additional observations from a re-analysis of the deposited data

How the results depend on the processing

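No paired analysis was possible because each genotype was 1 library, and no replicate could be left out for the same reason. The ratio of mast-like shares stayed within its counting interval in all 10 alternatives (0.731 to 1.88), as did the ratio of shares with proliferation UMIs (1.11 to 2.03). The ratio of granulocyte-like shares, 0.311, was 0 among cells with Xist and no Y-linked UMIs and 0 without members of 10 or more epithelial UMIs, and 0.710 at 13000 UMIs or more. Its interval excluded equal shares without those members (upper limit 0.491), with 20 summed UMIs (0.207, upper limit 0.873) and among cells with Y-linked and no Xist UMIs (0.0867, upper limit 0.609). The median log2 ratio of the protease list, -0.52, turned to 0.027 at 13000 UMIs or more, to 0.076 without the rule genes Cpa3 and Cma1, and to 0.15 without Mcpt8/Ms4a2-rich cells at 13000 UMIs or more; the cause was not tested. Genes at least 1.5-fold higher, 1015, numbered 307 with a minimum of 50 UMIs, 443 at 2-fold and 511 without Mcpt8/Ms4a2-rich cells at 13000 UMIs or more, where fewer genes were compared; genes lower, 621, numbered 221 with that minimum and 200 at 2-fold. Gene counts for granulocyte-like cells and their alternatives were not run, since Mettl3pKO held 3 such cells and 10 were required. With 3 to 30 mast-like or granulocyte-like cells per library and a median of 9939.5 UMIs in WT mast-like cells, low genes were not resolved.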

Other observations

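Several leading genes of the mast-like cells are seldom used as mast cell markers. Smpx, known as a small muscle protein gene, had 301 CPM in Mettl3pKO and 306 CPM in WT with UMIs in 40 of the 49 cells, against 0.124 CPM in the cells outside the 69. Gcsam, a signalling adaptor known from germinal centres, had 187 and 247 CPM (35 of 49 cells), the transcript Gm11697 had 169 and 167 CPM (38 of 49), and A530099J19Rik had 175 and 275 CPM (25 of 49; ratio 0.635, 0.451 to 0.887). As leading genes they were chosen by their level in these cells, which is a description and no test.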
